A study of Rattus norvegicus with 55 samples.

Results

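Cyp2c11 and Cyp2e1, 2 cytochrome P450 genes, were followed in rat kidney over 4 stage descriptions. Every probe set annotated to either gene was taken, which gave 6 of the 8799 probe sets on the array, 3 for each gene (2 of 4737 named genes), and all 6 passed the filter on low intensity. The genes were picked because earlier results from the same arrays showed their levels to differ between stages. The stage values below are therefore descriptions without a test.

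The series holds 55 one-colour Affymetrix arrays of total RNA from kidney, titled SHR kidney (SHR usually stands for the spontaneously hypertensive rat). The sample descriptions instead name Wistar-derived animals and sort the arrays by a stage word: 13 immature, 14 young, 14 mature, and 14 whose description carries no stage word. The labels name no treatment, genotype, age, sex, diet or number of animals for any of the 4 groups. They also leave unsaid whether the arrays within a group stand for different rats, so p-values below measure the spread between these samples alone, which may be technical. Replicate numbers follow the order of deposit and pair nothing.

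Cytochrome P450 enzymes are haem proteins of the endoplasmic reticulum that oxidise drugs, fatty acids and steroids with electrons passed on by a reductase. Cyp2c11 is best known from rat liver, where it is a male-specific steroid hydroxylase switched on at puberty under the pulsatile growth hormone pattern of males. Cyp2e1 oxidises small molecules such as ethanol, acetone and acetaminophen, and it is raised by fasting and ketosis. In kidney Cyp2e1 is found mainly in the proximal tubule.

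Both genes lie on the forward strand of chromosome 1 in the GRCr8 assembly. Cyp2c11 (gene ID 29277) spans chr1:246175216-246211445, 36230 bases, and is the first of 11 Cyp2c genes that RefSeq lists between it and Cyp2c23, the nearest being Cyp2c24 at position 246286341. Cyp2e1 (gene ID 25086) spans chr1:205269967-205280365, 10399 bases, and lies outside that cluster. The 250 bases before each annotated start, from RefSeq, are shown because the 2 genes followed different courses over the same stages. Capitals mark the TATA sequence and the letters ATTGG, which are CCAAT read from the opposite strand.
Cyp2c11 promoter, chr1:246174966-246175215: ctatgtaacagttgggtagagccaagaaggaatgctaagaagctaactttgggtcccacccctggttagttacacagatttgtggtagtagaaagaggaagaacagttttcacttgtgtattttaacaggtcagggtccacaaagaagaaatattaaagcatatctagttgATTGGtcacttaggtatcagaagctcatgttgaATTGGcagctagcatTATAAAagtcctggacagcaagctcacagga
Cyp2e1 promoter, chr1:205269717-205269966: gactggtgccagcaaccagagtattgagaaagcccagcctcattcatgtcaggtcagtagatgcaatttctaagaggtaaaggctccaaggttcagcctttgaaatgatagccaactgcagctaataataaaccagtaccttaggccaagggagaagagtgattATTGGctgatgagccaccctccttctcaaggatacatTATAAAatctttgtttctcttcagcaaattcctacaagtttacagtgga

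The TATAAA motif sits 31 to 26 bases before the start in Cyp2c11 and 49 to 44 bases before it in Cyp2e1. Of 33469 rat promoter windows searched on both strands, 12.9% held TATAAA and 34.0% held CCAAT, so neither match is rare. Cyp2c11 holds the CCAAT letters at 2 places, 79 to 75 and 46 to 42 bases before the start, and Cyp2e1 holds them at 86 to 82. The letters TTCNNNGAA (a STAT core) and TGTTTAC (a forkhead core) were found in neither window, and occurred in 7.67% and 3.21% of all windows. The full HNF1 and steroid receptor palindromes were also in neither, and in 0.00299% and 0.012% of all windows.

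Some arrays stood apart or shared features that no label names. The 2% trimmed mean of each array was 500.2 to 500.7, so every array had been scaled to the same level, and medians ran from 136 to 183.3. No label names a batch, but 42 control probe sets clustered the arrays into 3 sets, called batches here: batch 1 with 6 immature and 4 mature arrays, batch 2 with 7 immature, 6 young and 6 without a stage word, and batch 3 with 8 young, 8 without a stage word and 10 mature. Probe set X56596_at, for the MHC class II gene RT1-Bb, divided the arrays again, into 12 above 600 (lowest 1411.5) and 43 below it (highest 263). Each stage had 3 arrays in the high set. RNA integrity, read as the GAPDH 3'/5' ratio, set 2 mature arrays apart: replicate 1 at 7.18 and replicate 9 at 3.475, while the remaining 53 ran from 0.827 to 2.62. Results that rest on those 2 arrays are given with and without them.

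Cyp2c11 was much lower in immature kidney than in every later group. With J02657_s_at, its brightest probe set, the immature arrays lay between 20.7 and 239.4 with a median of 70.3. The young arrays lay between 1285.8 and 2946.1 (median 1611.95), the arrays without a stage word between 1287.9 and 4071.5 (median 2560.4), and the mature arrays between 834.6 and 4360.7 (median 2003.2). No array of the later groups came down to the highest immature array, while the 3 later groups overlapped widely with one another. On the log2(intensity + 15.82) scale the mature mean exceeded the immature one by 4.81 ± 0.26 (SE; n = 14 and 13). This size depends on the offset, since the immature arrays were dim: it was 5.12 ± 0.29 with an offset of 0.025 of the median and 4.09 ± 0.21 with 0.4. The corresponding differences from the immature arrays were 4.48 ± 0.26 for young kidney and 5.01 ± 0.26 without a stage word. These 3 comparisons share the immature arrays. Kidney RNA is a mixture of cell types, and fewer cells of a type cannot be told apart here from less RNA per cell.

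**Figure D1:**
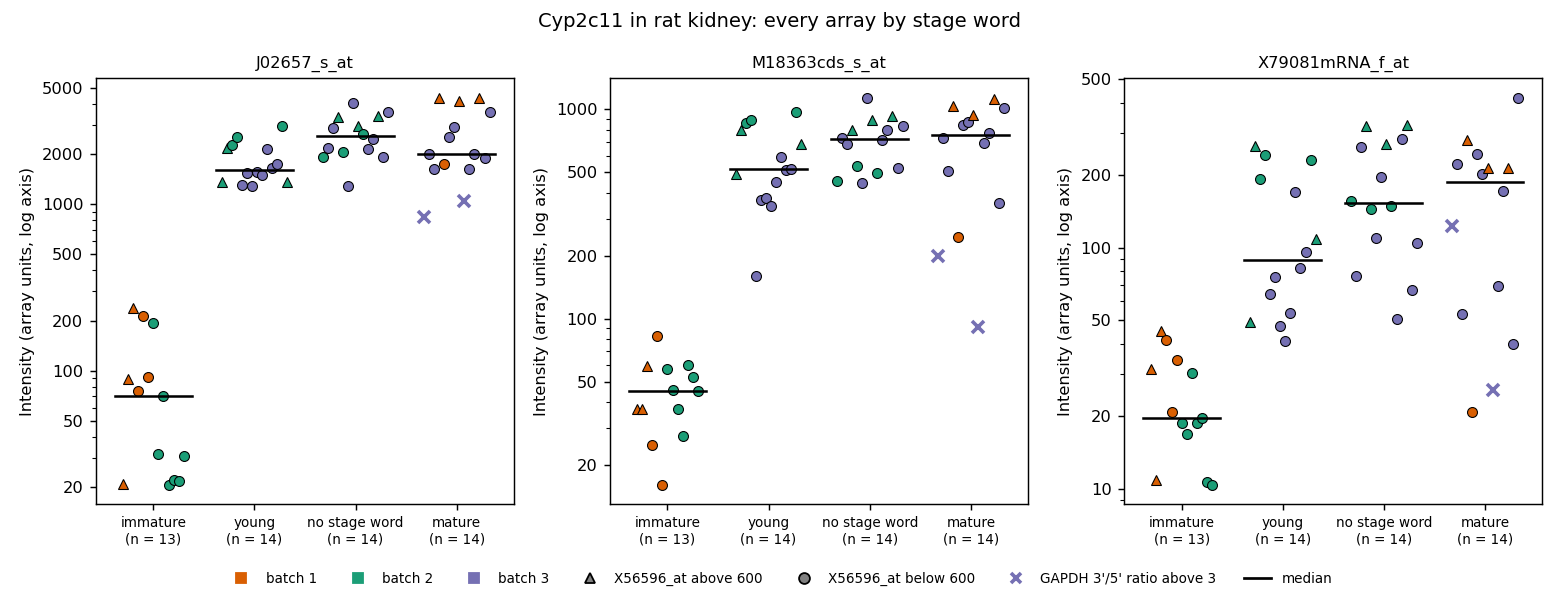
Intensity of the 3 Cyp2c11 probe sets on each of the 55 arrays (log axis, array units) by stage word, 1 point an array and a bar at the group median. Colour marks the batch, triangles the 12 arrays above 600 on X56596_at and crosses the 2 mature arrays of high GAPDH 3'/5' ratio. With J02657_s_at the immature arrays sit between 20.7 and 239.4 and every later array at 834.6 or higher.

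The other Cyp2c11 probe sets followed the same course with smaller steps. M18363cds_s_at read 16.2 to 82.5 in immature kidney (median 45.5), 161.1 to 974.1 in young (median 518), 447.6 to 1136.2 without a stage word (median 721.5) and 91.8 to 1120.3 in mature kidney (median 751.9). Again every later array lay above every immature one, by only a small margin for mature replicate 9 at 91.8. X79081mRNA_f_at was dim, with medians of 19.6, 89.25, 152.85 and 186.95 over the 4 groups in the same order. On it, 13 of 14 young, 14 of 14 without a stage word and 11 of 14 mature arrays exceeded all immature arrays (highest 45). As background, limma called 24.4% of the 6555 probe sets between mature and immature kidney, 18.7% between young and immature, and 27.0% between the arrays without a stage word and immature. Since these contrasts chose the genes, nothing is read from that comparison.

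The mature minus immature difference was 3.30 ± 0.26 with M18363cds_s_at and 1.89 ± 0.31 with X79081mRNA_f_at, on the log2 scale with the same offset. Among all 6555 probe sets ranked by their rise from immature kidney, J02657_s_at was first in each of the 3 comparisons, M18363cds_s_at was at rank 2, 2 and 3, and X79081mRNA_f_at at rank 6, 9 and 7 (mature, young, no stage word). The suffixes of these probe sets mark ones that can bind several related transcripts, and the Cyp2c genes are close in sequence, so how much of each signal comes from Cyp2c11 itself is uncertain.

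After the immature stage the Cyp2c11 groups differed little beside their spread. The mature minus young difference with J02657_s_at was 0.33 ± 0.26 (SE), mature minus no stage word was -0.19 ± 0.26, and no stage word minus young was 0.52 ± 0.26, with n = 14 in each group. In order of mean the groups ran immature, young, mature, no stage word, and neighbours among the last 3 did not differ beyond their spread. With replicates 1 and 9 left out the mature minus young difference was 0.53 with J02657_s_at and 0.42 ± 0.21 with M18363cds_s_at, against 0.09 with all arrays. Those 2 arrays gave 834.6 and 1041.2 with J02657_s_at, the lowest mature values, and the remaining 12 mature arrays ran from 1618.7 to 4360.7 (median 2276). The place of mature kidney below the arrays without a stage word also rested on them: without them that difference was 0.0097 ± 0.25 with J02657_s_at and 0.035 ± 0.21 with M18363cds_s_at, against -0.29 ± 0.25 with all arrays on the latter.

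The spread of Cyp2c11 within a stage depended on the probe set. Among immature arrays the highest exceeded the lowest 11.6-fold with J02657_s_at, against 2.29-fold in young, 3.16-fold without a stage word and 5.22-fold in mature kidney. M18363cds_s_at and X79081mRNA_f_at were instead most spread in mature kidney, at 12.2-fold and 20.1-fold, against 5.09-fold and 4.33-fold among immature arrays. For M18363cds_s_at this rested on the 2 mature arrays of high GAPDH ratio. Without them mature arrays read 246.8 to 1120.3, by fold a narrower spread than among immature or young arrays (6.05-fold in young). J02657_s_at narrowed as well, to 1618.7 to 4360.7, while X79081mRNA_f_at kept its range of 20.8 to 419.1. With J02657_s_at in batch 2, 6 of 7 immature arrays lay between 20.7 and 70.3 and replicate 7 at 192.9. In batch 1 they read 20.8, 75.7, 89.4, 92.1, 214.4 and 239.4 (replicates 1, 4, 2, 6, 5 and 3). The higher immature arrays thus came from both batches.

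The rise of Cyp2c11 was of like size where stages could be compared inside a batch. In batch 1, mature arrays read 1740.8 to 4360.7 and immature arrays 20.8 to 239.4 with J02657_s_at, a log2 difference of 4.91 ± 0.49. In batch 2, young arrays read 1352.3 to 2946.1 and arrays without a stage word 1921.4 to 3372.2 against 20.7 to 192.9 in immature kidney, differences of 5.15 and 5.54. None of these ranges overlapped, and the same held for M18363cds_s_at, with 3.76 ± 0.43 in batch 1 and 3.67 ± 0.19 for young against immature in batch 2. X79081mRNA_f_at overlapped in batch 1 (mature 20.8 to 281.2, immature 10.9 to 45) but not in batch 2. The share of all probe sets separated in this way, over all arrays or inside a batch, was not computed. In batch 3 the mature minus young difference was 0.23 with J02657_s_at, with the 2 mature arrays of high GAPDH ratio included. Those 2 arrays lay below all young arrays of the batch. The remaining 8 mature arrays read 1618.7 to 3568.9 against 1285.8 to 2141.3 in young kidney, which overlapped, and 3 lay above all young arrays. With M18363cds_s_at these 8 arrays read 355.8 to 1018 against 161.1 to 590.9, and 6 lay above all young arrays.

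**Figure D2:**
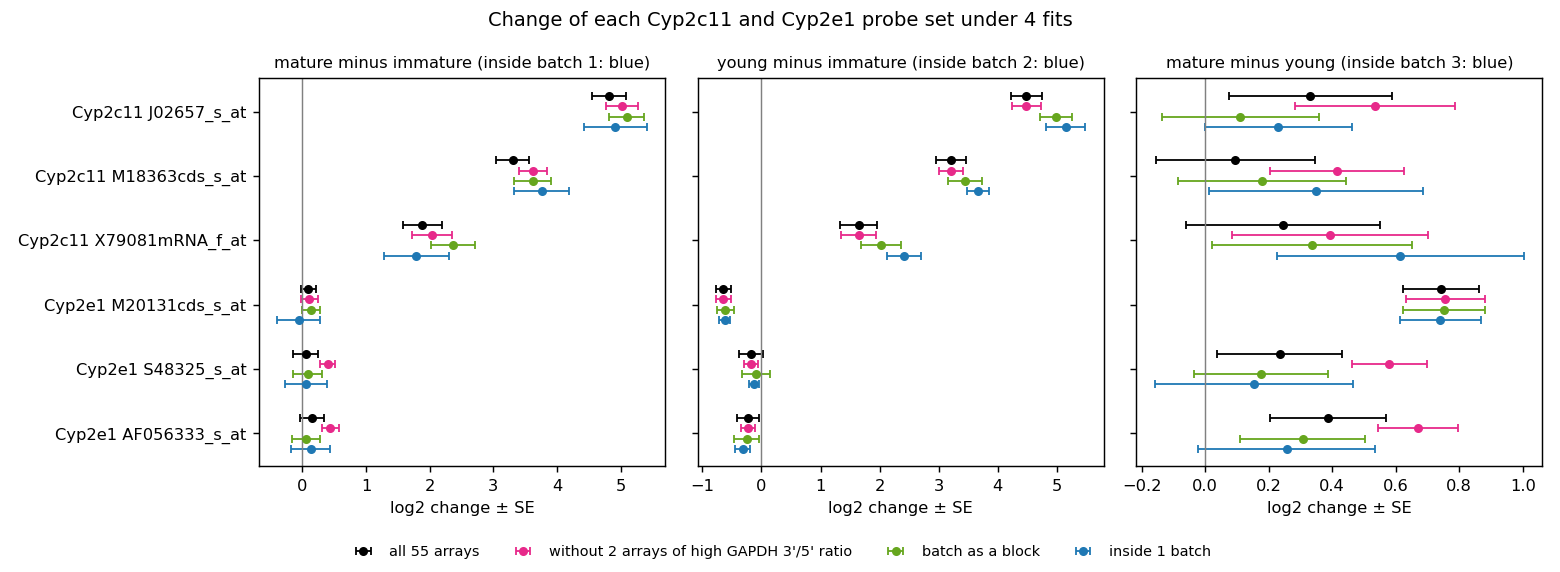
Log2 change (± SE) of each probe set for mature minus immature, young minus immature and mature minus young, from all 55 arrays, without the 2 mature arrays of high GAPDH 3'/5' ratio, with batch as a block, and inside the batch named above each panel. The Cyp2c11 changes from immature kidney stay between 1.64 and 5.15, and Cyp2e1 M20131cds_s_at keeps a mature minus young change of 0.74 inside batch 3.

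Cyp2e1 was high at every stage and took a different course, with its lowest values in young kidney. With M20131cds_s_at, its brightest probe set, immature arrays read 3176.7 to 13106.9 (median 5233), young 2152.5 to 4797.2 (median 3559.35), those without a stage word 3331 to 6633.4 (median 4989.65) and mature 4747.7 to 7084.3 (median 5665). The mature and young ranges barely met: 13 of 14 mature arrays lay above every young array. Limma called 1.80% of all probe sets between mature and young kidney, which is another measure. The share of all probe sets separated this far was not computed. The immature range was the widest, with replicate 4 at 13106.9 and the next immature array at 6534.6.

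On the log2 scale M20131cds_s_at was lower in young than in immature kidney by -0.64 ± 0.12 (SE) and higher in mature than in young kidney by 0.74 ± 0.12. The mature and immature means differed by 0.10 ± 0.12, within the error. Arrays without a stage word lay between, at -0.18 ± 0.12 from immature and 0.47 ± 0.12 above young kidney. In order of mean the groups ran young, no stage word, immature, mature, and of the neighbours young kidney and the arrays without a stage word lay farthest apart. Every difference between neighbours was smaller than the SD within the immature group (0.48), which holds replicate 4 at 13106.9. The one between young kidney and the arrays without a stage word exceeded the SD within those 2 groups (0.25 in each). By size the mature minus young difference was at rank 30 of 6555 rises and the young minus immature one at rank 226 of the falls.

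The young minimum of M20131cds_s_at was present inside batches. In batch 2 the young arrays (2904 to 3643.7) lay below all immature arrays (4319.9 to 6396.3) and below all arrays without a stage word (4721 to 6633.4). The young minus immature difference there was -0.62 ± 0.09. In batch 3 the mature arrays (5316.7 to 7084.3) lay above all young arrays (2152.5 to 4797.2) and all arrays without a stage word (3331 to 5169.8), with a mature minus young difference of 0.74 ± 0.13. The no stage word minus young difference was 0.69 in batch 2 and 0.29 in batch 3. How many of all probe sets separated this far inside a batch was not computed.

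**Figure D3:**
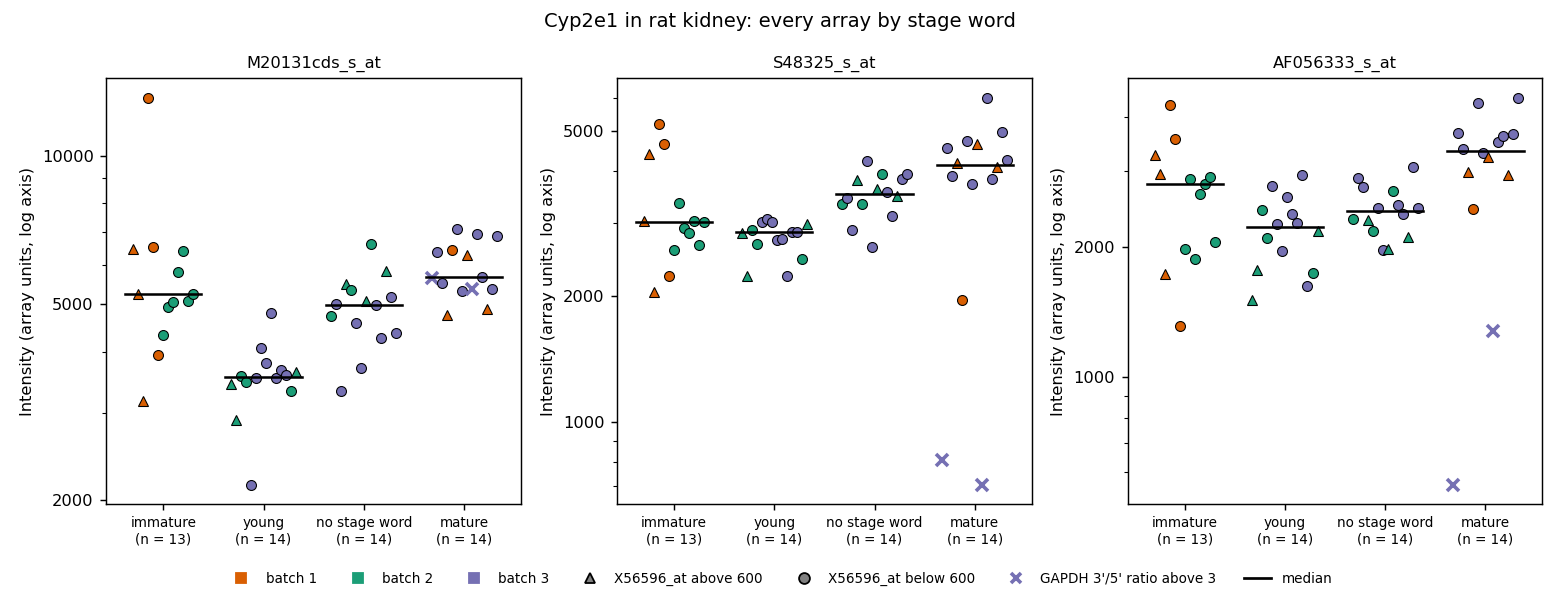
Intensity of the 3 Cyp2e1 probe sets on each of the 55 arrays (log axis, array units) by stage word, with the same symbols as for Cyp2c11. With M20131cds_s_at the young arrays sit lowest (median 3559.35) and 13 of 14 mature arrays lie above all of them, and the 2 crosses are low on the other probe sets only.

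The 2 further Cyp2e1 probe sets showed smaller stage differences. S48325_s_at read 2044.2 to 5194.1 in immature (median 3015), 2234 to 3062.7 in young (median 2850), 2623.5 to 4232.7 without a stage word (median 3523.1) and 705.5 to 6009.5 in mature kidney (median 4132.55). AF056333_s_at had medians of 2802.6, 2221.35, 2423.6 and 3343.1, with mature arrays from 561.8 to 4438.5. Young kidney had the lowest median on all 3 probe sets, but the ranges of S48325_s_at and AF056333_s_at overlapped. Young minus immature was -0.18 ± 0.20 with S48325_s_at and -0.23 ± 0.19 with AF056333_s_at, neither beyond its error by much.

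In mature kidney the Cyp2e1 probe sets parted most on replicates 1 and 9. With AF056333_s_at they read 561.8 and 1273.4, and with S48325_s_at 807.8 and 705.5, below every other array of any stage. With M20131cds_s_at the same arrays read 5648.2 and 5370.9, inside the range of the other mature arrays. The ratio of M20131cds_s_at to AF056333_s_at was 10.05 and 4.22 on them, against 0.78 to 3.08 on the other 53 arrays, and the ratio to S48325_s_at was 6.99 and 7.61 against 0.71 to 3.28. Such ratios compare one pair of probe sets across arrays and give no relative level. Their GAPDH 3'/5' ratios were the highest of all arrays, and the part of RNA integrity in these values was not tested.

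**Figure D4:**
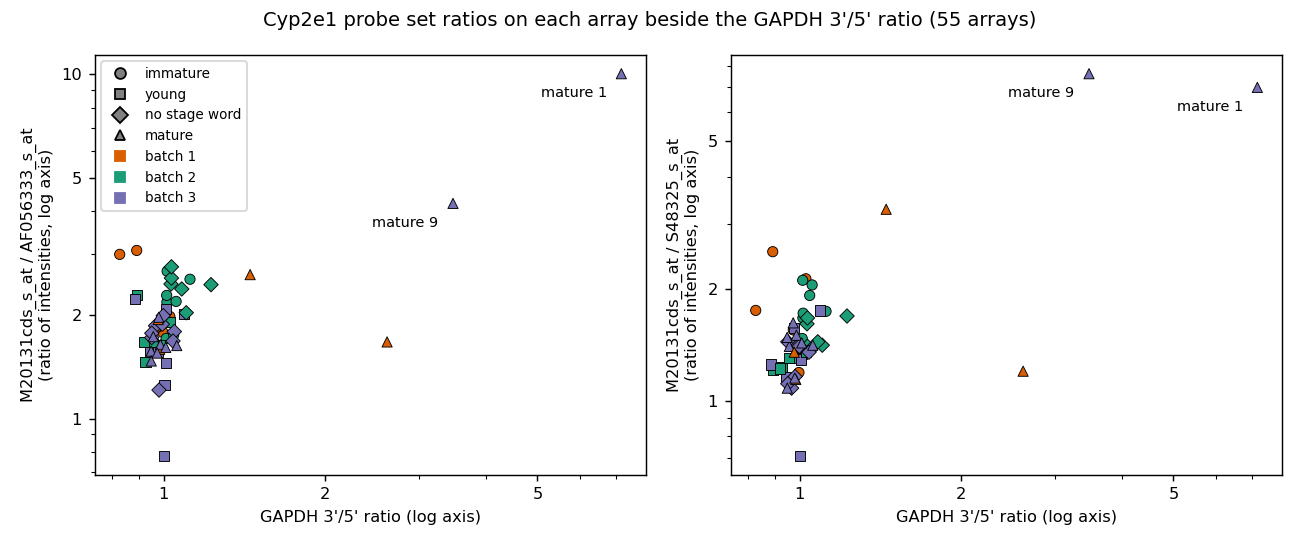
Ratio of M20131cds_s_at to AF056333_s_at (left) and to S48325_s_at (right) on each array against its GAPDH 3'/5' ratio, all on log axes, with shape for the stage word and colour for the batch. Mature replicates 1 and 9 lie apart, at 10.05 and 4.22 on the left and 6.99 and 7.61 on the right.

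With those 2 arrays left out, the Cyp2e1 probe sets came closer to one another in mature against young kidney. That difference was 0.58 ± 0.12 with S48325_s_at and 0.67 ± 0.12 with AF056333_s_at, against 0.23 ± 0.20 and 0.39 ± 0.18 with all arrays. In batch 3 without them, mature arrays lay above all young ones on both: 3719.7 to 6009.5 against 2245.1 to 3062.7 with S48325_s_at, and 3309.3 to 4438.5 against 1619.5 to 2944.8 with AF056333_s_at. The share of all probe sets separated so was not computed. Mature minus immature became 0.40 ± 0.12 and 0.44 ± 0.13 on these probe sets, while it was 0.05 ± 0.20 and 0.16 ± 0.19 with all arrays. M20131cds_s_at stayed at 0.11 ± 0.13 there, so the probe sets came apart in that comparison. For mature minus no stage word, S48325_s_at turned from -0.11 to 0.24 without the 2 arrays, and AF056333_s_at went from 0.21 to 0.50. All 3 probe sets had mature kidney above young kidney without the 2 arrays. Mature kidney was above immature kidney beyond the error on S48325_s_at and AF056333_s_at only, since the difference with M20131cds_s_at was within its error.

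Cyp2c11 and Cyp2e1 showed no clear relation to each other within a stage. Pearson's r between J02657_s_at and M20131cds_s_at was -0.281 over 13 immature, -0.0544 over 14 young, -0.142 over 14 arrays without a stage word and -0.101 over 14 mature arrays, with Spearman's rho of -0.374, -0.336, -0.0769 and -0.218. The permutation p-values were 0.372, 0.861, 0.629 and 0.731 for r and 0.209, 0.242, 0.796 and 0.454 for rho, and adjusted over the 24 relations computed they were 0.551 or higher for r and 0.335 or higher for rho. Without the 2 arrays farthest from the median, r was -0.166, -0.00751, -0.0376 and 0.0263. Inside batches r ran from -0.768 over 7 immature arrays of batch 2 to 0.422 over 6 arrays without a stage word in batch 2, without a common sign.

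The Cyp2c11 probe sets J02657_s_at and M18363cds_s_at moved together in each later stage. In mature kidney r was 0.847 (permutation p = 3e-05, adjusted 0.00072; rho 0.947), 0.813 without the 2 farthest arrays and 0.856 over the 10 arrays of batch 3. In young kidney r was 0.771 (permutation p = 0.00104, adjusted 0.00312; rho 0.78), with 0.901 and 0.738 in batches 2 and 3. Without a stage word r was 0.829 (permutation p = 0.00036, adjusted 0.00245; rho 0.864). Among immature arrays, where both were dim, r was 0.279 (permutation p = 0.359, adjusted 0.551; rho 0.28).

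The Cyp2e1 probe sets M20131cds_s_at and AF056333_s_at were related among immature arrays, and whether r differed between stages was not tested. Over the immature arrays r was 0.809 (permutation p = 0.00051, adjusted 0.00245; rho 0.841), with 0.857 over the 6 arrays of batch 1 and 0.493 over the 7 of batch 2. It was -0.0484 in young, 0.0409 without a stage word and 0.283 in mature kidney (permutation p = 0.876, 0.89 and 0.351, adjusted 0.89, 0.89 and 0.551). Between AF056333_s_at and S48325_s_at r was 0.905 in mature kidney (permutation p = 0.00074, adjusted 0.00254; rho 0.688), 0.643 without the 2 farthest arrays, and in batch 3 it went from 0.921 to 0.166 without them. The 2 farthest arrays were replicates 1 and 9 in both cases. The relation thus rested on them inside batch 3, and only in part over all mature arrays.

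The stage courses can be set beside the X56596_at sets, which no label defines and which were not tested. On the 3 arrays a stage above 600, Cyp2c11 J02657_s_at read 20.8, 89.4 and 239.4 in immature, 1352.3, 1359.8 and 2188.9 in young, 2970.1, 3362.6 and 3372.2 without a stage word, and 4183.8, 4334.1 and 4360.7 in mature kidney. Here the 4 stages did not overlap, and the order put mature kidney highest. With only 3 arrays a stage this is a description, and the share of all probe sets separated likewise was not computed. These immature and mature arrays were all of batch 1, and the young and no stage word ones all of batch 2. Mature kidney was thus set against the latter 2 groups only across batches, where stage and batch cannot be told apart. On the arrays below 600 mature kidney read 834.6 to 3568.9 and young 1285.8 to 2946.1, which overlapped. M18363cds_s_at kept the same order above 600, with 490 to 794.2 in young, 798.5 to 934.5 without a stage word and 942.2 to 1120.3 in mature kidney. X79081mRNA_f_at did not: it read 49.2 to 263.4 in young, 269.2 to 322.5 without a stage word and 214.1 to 281.2 in mature kidney, so mature kidney was not highest and overlapped both.

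Batch and X56596_at set were tied together in these values. The high set of immature and mature kidney lay in batch 1, that of young kidney and of the arrays without a stage word in batch 2, and only mature replicate 5 (1740.8 with J02657_s_at) was a low-set mature array in batch 1, so set and batch cannot be told apart in mature kidney. Inside batch 2 the 3 high-set young arrays read lower than the 3 low-set ones (2254.5, 2534 and 2946.1), whereas the 3 high-set arrays without a stage word read higher than the low-set ones (1921.4, 2063.5 and 2654.7). Cyp2c11 was therefore not uniformly higher in the high set.

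Cyp2e1 M20131cds_s_at overlapped between the sets in every stage. Above 600 it read 3176.7, 5248 and 6474 in immature, 2904, 3437.6 and 3643.7 in young, 5065, 5483.2 and 5823.9 without a stage word and 4747.7, 4891.1 and 6287.1 in mature kidney. Below 600 the mature arrays read 5316.7 to 7084.3. Young kidney was below mature kidney in the high set as in the low one, though in the high set these stages lay in different batches.

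Relatives of the 2 genes were taken from lists, and only the genes' own probe sets were left out of them. Of 39 other Cyp2 genes listed, 19 were on the array and 13 passed the filter on low intensity. Between mature and immature kidney, 5 of the 13 rose and none fell, beside 24.8% of all 3835 genes called (10.4% higher and 14.4% lower), and the median change was 0.35 against 0.04 over all genes. Cyp2d4 rose by 0.77 ± 0.17 (limma adjusted p = 0.000522), Cyp2c23, an arachidonic acid epoxygenase of kidney, by 0.71 ± 0.20 (0.0058), Cyp2c6v1 by 0.68 ± 0.21 (0.0116), Cyp2b15 by 0.61 ± 0.21 (0.0237) and Cyp2d3 by 0.53 ± 0.20 (0.047). Other probe sets of these genes gave less: Cyp2c23 had 0.12 (adjusted p = 0.713) and -0.03 (0.912) on its remaining probe sets, and Cyp2d4 had 0.28 (0.199). Only Cyp2d4 was still called with batch as a block, at 0.63, and none of the 5 was inside batch 1, where 10 arrays remain.

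Cyp2c13, which like Cyp2c11 is male-specific in rat liver, did not pass: its mature minus immature value was -0.01 ± 0.31 (limma adjusted p = 0.988) on its brightest probe set and 0.50 ± 0.31 (0.237) on the other. The Cyp2c12, Cyp2c7 and Cyp2c22 probe sets lay under the filter. None of the measured Cyp2 relatives had a change of the size of Cyp2c11; the next after it in the list, Cyp2d4, was at 0.77. In young against immature kidney 3 of 13 Cyp2 genes rose and none fell (18.7% of all genes called, 8.29% higher and 10.4% lower), and none of the 3 was called with batch as a block.

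Of 11 measured Cyp1, Cyp3 and Cyp4 genes, 3 rose and 1 fell between immature and mature kidney (36.4% called beside 24.8% of all genes), with a median of 0.17. Cyp4f6 rose by 0.57 ± 0.17 (limma adjusted p = 0.0123), Cyp4f1 by 0.42 ± 0.11 (0.00416) and Cyp4a8 by 0.41 ± 0.10 (0.0016), all fatty acid hydroxylases, and Cyp4b1 was lower, at -0.78 ± 0.22 (0.00603). With batch as a block only Cyp4a8 was still called. The remaining 7, among them Cyp1b1, Cyp3a9 and Cyp4a1, did not pass.

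Among 14 electron donors and haem enzymes that serve P450 proteins, 4 rose and 1 fell (35.7% called beside 24.8% of all genes), with a median of -0.02. Cyb5a, cytochrome b5, rose by 1.41 ± 0.40 (limma adjusted p = 0.00719), Cyb5r1 by 0.66 ± 0.16 (0.00196), Por, the reductase that feeds Cyp2c11 and Cyp2e1 with electrons, by 0.42 ± 0.12 (0.00847), and Alad, an enzyme of haem synthesis, by 0.40 ± 0.11 (0.00454). Fdx1, the donor of mitochondrial P450 enzymes, was at -0.64 ± 0.14 (0.000768). With batch as a block Por was at 0.29 (adjusted p = 0.15) and only Alad of the 5 was still called.

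Genes listed as male-biased in rat liver or kidney, or as female-biased in liver, gave small counts. Of 7 measured male-biased genes 3 rose and none fell, 42.9% called beside 24.8% of all genes (10.4% higher): Slc22a2, an organic cation transporter, by 1.27 ± 0.14 (limma adjusted p = 7.61e-10), Slco1a1 by 0.65 ± 0.25 (0.0488) and Fmo1 by 0.51 ± 0.11 (0.00031). Slc22a2 and Fmo1 were still called with batch as a block. Of 6 female-biased genes limma called none, though 3 had an unadjusted p under 0.05, and their median change of 0.39 was no smaller than the male-biased median of 0.31.

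Of 33 measured genes of growth hormone signalling, hormone receptors and liver-type transcription factors, 3 rose and 1 fell between immature and mature kidney, 12.1% of the list beside 24.8% of all genes. Igfals, a carrier subunit of IGF in blood, rose by 0.80 ± 0.12 (limma adjusted p = 2.15e-06), Hnf4a, a transcription factor of liver and proximal tubule, by 0.80 ± 0.17 (0.000418) and Stat5b, the growth hormone responsive factor, by 0.44 ± 0.12 (0.00505), while Dbp, a clock-driven factor, was at -0.74 ± 0.26 (0.0316). Igfals and Hnf4a were still called with batch as a block, Stat5b was at 0.28 (adjusted p = 0.16), and inside batch 1 Hnf4a was at 1.44 and called. The median of the list was 0.19. Between mature and immature kidney without the 2 arrays of high GAPDH ratio, 6 rose and 1 fell. In that fit 710 of all probe sets were called higher and 922 lower. Against immature kidney, 24.2% of the list was called in young kidney and 33.3% without a stage word, beside 18.7% and 27.4% of all genes.

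For Cyp2e1, 15 enzymes of alcohol, aldehyde and ketone metabolism were measured, of which 3 rose and 3 fell between immature and mature kidney (40% called beside 24.8% of all genes), with a median of -0.04. Cat, the peroxisomal catalase that also oxidises ethanol, rose by 0.59 ± 0.21 (limma adjusted p = 0.0377), Aldh2, the mitochondrial acetaldehyde dehydrogenase, by 0.35 ± 0.11 (0.0159) and Akr1a1 by 0.33 ± 0.11 (0.016). Aldh1a2, a retinaldehyde dehydrogenase, was at -1.19 ± 0.18 (2.15e-06), Bdh1, of ketone body breakdown, at -0.71 ± 0.15 (0.000271) and Adh5 at -0.51 ± 0.12 (0.000825). Only Aldh1a2 and Bdh1 were still called with batch as a block. Between young and mature kidney 1 gene of this list rose and Bdh1 fell by 0.62, beside 1.56% of all genes called (0.626% higher and 0.939% lower).

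The 21 measured enzymes that conjugate or clear products of Cyp2e1 substrates had 6 rises and 2 falls in the same comparison (38.1% called beside 24.8% of all genes), with a median of 0.23. Glutathione transferase Gsta1 rose by 0.99 ± 0.16 (limma adjusted p = 5.89e-06), Ggt1 by 0.77 ± 0.16 (0.000271), Gstp1 by 0.62 ± 0.10 (9.17e-06) and the epoxide hydrolase Ephx1 by 0.47 ± 0.13 (0.00464). Gsta3 was at -1.08 ± 0.15 (1.47e-07) and Gstt2 at -0.80 ± 0.25 (0.016). Of the 8 calls, 6 were still made with batch as a block.

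**Figure D5:**
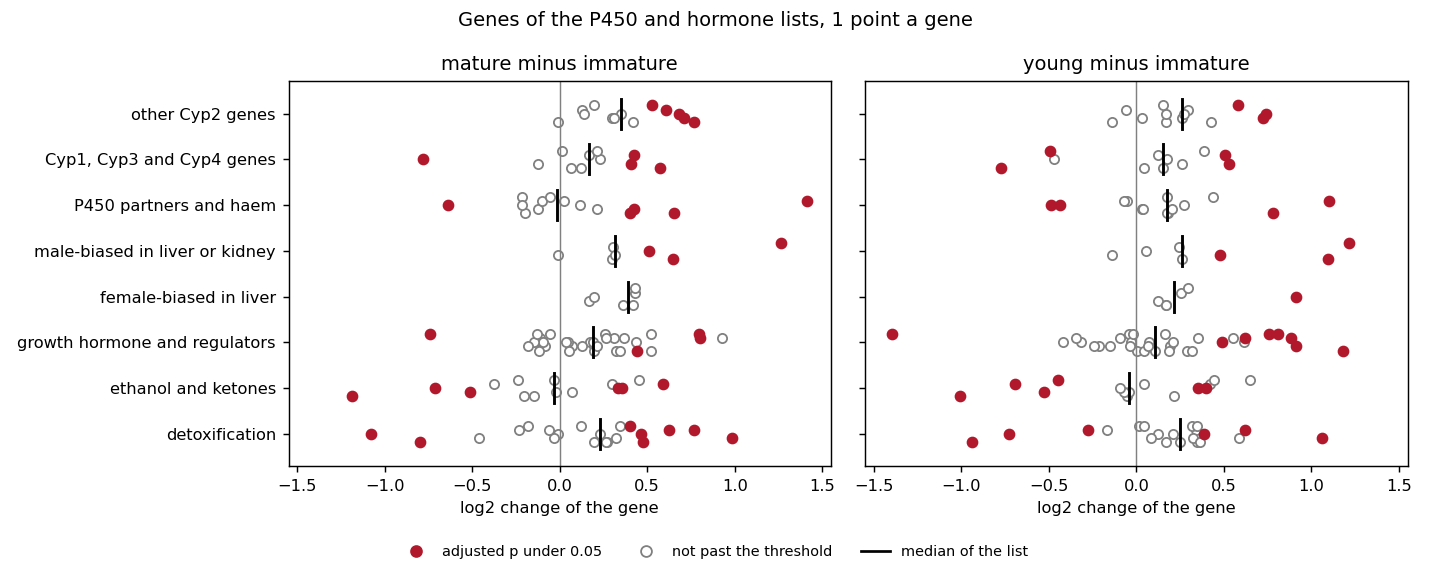
Log2 change of every measured gene of the 8 lists in mature minus immature and young minus immature kidney, 1 point a gene, filled where the limma adjusted p was under 0.05, with a bar at the list median. Other Cyp2 genes have a median of 0.35 in mature minus immature kidney and none lies beyond 0.77.

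Markers of cell types were read beside the Cyp2c11 rise. The summed intensity of 20 measured proximal tubule markers was 58955.6 to 94467.2 in immature (median 79076.7), 79617.9 to 110536.2 in young, 85645.5 to 110770.8 without a stage word and 62614.6 to 123581.1 in mature kidney (median 103533.8). Of those 20, 5 rose and 4 fell between immature and mature kidney (45% called beside 24.8% of all genes), and 4 of these 9 were still called with batch as a block. Liver markers, which would accompany liver RNA, were summed over 20 measured genes. The sums were 2933.4 to 5594.3 in immature (median 3543.8) and 4509.6 to 7473.7 in mature kidney (median 4813.9). Of these 20 genes 3 rose and none fell. The 15% called, all higher, stands beside 10.4% of all genes called higher and 24.8% called in either direction. Mbl1 rose by 2.08 ± 0.18 (limma adjusted p = 2.96e-13), Gc by 1.46 ± 0.21 (2.48e-07) and F2 by 0.91 ± 0.29 (0.0159). Alb, for the main liver plasma protein and named after its values were seen, had medians of 74.2, 66.55, 68.35 and 66.65 over the 4 groups and a mature minus immature value of -0.11 ± 0.14 (0.6). Those medians lay under the array medians of 136 to 183.3, so little can be read from this 1 dim gene. Mbl1, Gc and F2 were all still called with batch as a block. In that fit 5 of the 20 liver markers rose and 1 fell. Over all 6555 probe sets the same fit called 326 higher and 503 lower. The liver share there was thus above the background, for rises alone and for calls in either direction. Of 18 measured markers of other nephron segments 3 rose and 6 fell (50% called). Of 17 for fat, adrenal gland, blood and immune cells 1 rose and 2 fell (17.6% called, below the 24.8% of all genes). No intensity in the series was 0. The part of liver or proximal tubule markers in the Cyp2c11 values was not tested.

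Genes whose pattern was most like that of Cyp2c11 over the 55 arrays were found among 3834 genes by Spearman's rho with J02657_s_at, as a description of arrays that share stages and batches. Enpp3 was highest with 0.81, followed by Resp18 (0.73), Soat1 (0.72), Hnf4a (0.71), Cldn3 (0.69), Chdh (0.69), Gstp1 (0.68) and Erbb3 (0.67). The lowest were Myl6b (-0.79), Aldh1a2 (-0.72), Col1a2 (-0.70) and Col1a1 (-0.70). Once each stage mean was taken off, Gamt (0.65), Enpp3 (0.64), Apex1 (0.55), Mapk14 (0.55) and Cdo1 (0.54) led. Enpp3 alone was on both lists, and it had 0.63 with stage and batch means removed.

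For Cyp2e1 with M20131cds_s_at the most alike genes were Acaa1b (0.74), Eci1 (0.66), Slc13a2 (0.55), Ndufs8 (0.55), Mtarc2 (0.54), Sec31a (0.52), Ech1 (0.51) and Ppp1r16b (0.51). The lowest were Stx1a (-0.63), Arf2 (-0.56), Tpm4 (-0.54) and Acsl4 (-0.53). Acaa1b, a peroxisomal thiolase, had a young minus immature change of -0.72 beside -0.64 for Cyp2e1, and its rho was 0.31 with stage means removed. After that removal the highest were Cryab (0.50), Ndufa9 (0.47), Sod3 (0.45), Stx8 (0.45) and Ndufv2 (0.43), none of them among the first 8. The 2 genes' lists of highest rho over the 55 arrays shared no gene.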

How the data were processed

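Total RNA of 55 kidney samples was hybridised to Affymetrix rat arrays. The deposited values are linear intensities per probe set that the authors had scaled to a common trimmed mean, as the values themselves show; the summarisation software is not given in the sources used here. From them log2(intensity + 15.82) was computed, the offset being 0.1 of the median. Groups came from the sample descriptions. The 59 control probe sets were left out, as were probe sets whose mean log2 value fell below the 25th percentile, which left 6555 probe sets and 3835 genes, each gene by its brightest probe set. Of all probe sets 7018 had 1 gene symbol, 308 several and 1473 none, and 6994 symbols were brought up to date through RefSeq GRCr8. All 55 arrays were fitted together in limma 3.58.1 (R 4.3.3) with 6 contrasts, and p-values were adjusted by Benjamini-Hochberg over everything tested, with a threshold of 0.05. Correlations used 100000 permutations, two-sided, and figures matplotlib 3.10.9. The number of arrays limits the precision. On simulated data for mature against immature kidney over 6555 probe sets, 47.8%, 97% and 100% of log2 changes of 0.5, 1 and 2 were recovered, and 10 of 173 calls were false.

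Both genes and all lists were chosen with earlier results of these data known. Named are both genes' probe sets; of each list up to 4 called rises and 4 called falls in mature against immature kidney, with any measured P450; for each gene the 8 highest and 4 lowest rho over the arrays and the 5 highest after stage means were removed; and the brightest markers. Alb was named outside this rule. Alternatives changed the offset, normalization, filter, variance model, array weights, batch or X56596_at block, the arrays used and the probe set.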

Additional observations from a re-analysis of the deposited data

How the results depend on the processing

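All Cyp2c11 differences from immature kidney kept their direction in every alternative run. With an offset of 0.4 of the median they were 4.09 (mature), 3.76 (young) and 4.28 (no stage word), with M18363cds_s_at 3.30, 3.21 and 3.59, and with X79081mRNA_f_at 1.89, 1.64 and 2.18. For Cyp2e1, S48325_s_at gave -0.18 (young minus immature), 0.16 (no stage word minus immature), 0.23 (mature minus young) and, reversed, -0.11 (mature minus no stage word), and AF056333_s_at gave -0.23 and 0.39 for young minus immature and mature minus young. On the arrays above 600 on X56596_at alone, Cyp2c11 mature minus young was 1.42 and Cyp2e1 was 0.19 (no stage word minus immature) and, reversed, -0.049 (mature minus no stage word). Above 600 the stages in these comparisons lay in different batches. The cause of all the moves named here was not tested.

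Leaving out each replicate in turn kept the Cyp2c11 differences between 4.72 and 4.96 (mature minus immature), 4.39 and 4.63 (young minus immature), 4.92 and 5.15 (no stage word minus immature), 0.25 and 0.44 (mature minus young), 0.47 and 0.60 (no stage word minus young) and -0.27 and -0.09 (mature minus no stage word). The Cyp2e1 ranges in the same order were 0.03 to 0.20, -0.71 to -0.54, -0.24 to -0.07, 0.69 to 0.78, 0.41 to 0.51 and 0.24 to 0.31.

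Calls over all probe sets were 1599 (mature against immature), 1225 (young against immature), 1773 (no stage word against immature), 118 (mature against young), 27 (mature against no stage word) and 15 (no stage word against young), and 58 among list genes in mature against immature kidney. Without 1 array they were 1371 to 1793, 1032 to 1292, 1546 to 1898, 61 to 160, 13 to 50 and 8 (without no stage word replicate 9) to 20, and 52 to 65 among list genes. The mature against young count fell to 67, 63, 63, 61 and 64 without young replicates 1, 2, 3, 4 and 13, and to 72 and 62 without mature replicates 1 and 9. The mature against no stage word count was 13 and 17 without no stage word replicates 1 and 8, 17 without mature replicate 1 or 9, and 46 and 50 without mature replicates 3 and 13. With array weights they were 3691, 2902, 3831, 260, 73 and 372, and 118. With batch as a block they were 829, 583, 345 (mature against no stage word) and 66 (no stage word against young), and with the X56596_at set as a block 48 for mature against no stage word. Arrays above 600 alone gave 374, 834 (no stage word against immature), 482, 146 and 79, and 14 among list genes, and arrays below 600 alone gave 48, 16 and 2 for the 3 comparisons without immature kidney. Without the 2 arrays of high GAPDH ratio there were 59 between mature and young kidney and 33 between no stage word and young. Batch 1 alone gave 47, with 3 in the lists; batch 2 alone 1921 (young against immature), 2848 and 1778; batch 3 alone 29, 14 and 0, the last with 187 at an unadjusted p under 0.05 in limma. For mature against no stage word, no filter gave 14 and a filter at the 50th percentile 44. The share of higher calls between mature and immature kidney was 42.4%, against 61.8% above 600 and 56.2% with array weights.

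No paired analysis was possible because the labels carry no replicate numbers, which here run in deposit order.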
